A study of Mus musculus with 12 samples.

Results

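Of 54119 genes measured in cerebral vessels of the mouse, 9 are described here: the 4 atypical chemokine receptors Ackr1, Ackr2, Ackr3, and Ackr4, the related receptor Ccrl2, the chemokine Cxcl12 with its signaling receptor Cxcr4, and the membrane-tethered chemokines Cx3cl1 and Cxcl16. They were chosen by gene family and matched by symbol to their identifiers. All 9 were found in the deposited files, and all 9 passed the filter on low counts that left 19150 genes for testing. The vessels were isolated from wild type C57BL6 mice aged 2 to 3 months, either from PBS controls or from animals given lipopolysaccharide (LPS, a bacterial cell wall component that activates Toll-like receptor signaling) intraperitoneally, 10 mg/kg, and killed 15 min, 30 min, or 4 h later. There were 3 libraries in a group, each of which pooled the vessels of 1 male and 1 female, so that 12 libraries stood for 24 mice. The question of the series was how acute systemic inflammation acts on the cerebral vasculature. When the controls were killed is not given in the sources used here.

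Chemokines guide leukocytes through receptors that signal by G proteins. Atypical receptors bind chemokines without that signaling and take them up, move them across the cell, or hold them, and so shape the gradients that leukocytes follow. Ackr1 is known from venules and red cells, where it binds many inflammatory CC and CXC chemokines, Ackr2 scavenges inflammatory CC chemokines, Ackr3 takes up Cxcl12, and Ackr4 takes up the homeostatic chemokines Ccl19, Ccl21, and Ccl25. Ccrl2 presents the chemoattractant chemerin. Cx3cl1 and Cxcl16 stand on membrane-anchored mucin stalks and are cut free by ADAM proteases.

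The libraries held 18.3 to 25.9 M fragments. Levels are given as CPM, a scaled count (counts over library size times the TMM factor), or as TPM, which divides by transcript length and is scaled to a constant sum. The TMM factor assumes that most genes do not change between libraries, which was not tested. A change was called where edgeR found it beyond 1.5-fold at an adjusted p below 0.05 over all 19150 genes. Of these genes, 3.31%, 3.78%, and 19% were called higher against PBS at LPS 15 min, LPS 30 min, and LPS 4 h, and 0.872%, 0.799%, and 13.8% lower. Counts of markers and other list genes called against PBS stand beside these shares. The 3 comparisons with PBS share the PBS libraries. Scaling by library size alone set the median of all genes 0.70 lower at LPS 4 h against PBS on the log2 scale, 0.16 lower at LPS 30 min, and 0.024 lower at LPS 15 min. With it the share of calls that were higher went from 58.0% to 18.2% for LPS 4 h against PBS and from 82.6% to 61.4% for LPS 30 min against PBS. The same share went from 57.9% to 37.2% between the first and second LPS times and from 58.9% to 21.7% between the second and the last. All 7 endothelial markers (Pecam1, Cdh5, Cldn5, Flt1, Tek, Erg, Kdr) were detected in every group. Their summed level was 6510 to 6712 CPM in PBS and was already lower at LPS 15 min, at 4970 to 5025 CPM. It was 4708 to 4742 CPM at LPS 30 min and 5031 to 5090 CPM at LPS 4 h. At each early time 2 of 7 were called lower and 0 higher (2 and then 3 lower with scaling by library size). At LPS 4 h 2 were called higher (Cdh5, Erg) and 4 lower (Cldn5, Tek, Kdr, Pecam1), or 1 and 5 with scaling by library size. Markers of other cells were detected as well, among them Ttr of the choroid plexus, at 10060 CPM in PBS and 17033 CPM at LPS 4 h. The 5 neuron markers summed to 307 to 319 CPM in PBS and 480 to 491 CPM at LPS 15 min. Of these, 2 were called higher at LPS 15 min, or 1 with scaling by library size. Other lists were lower at that time. The 4 smooth muscle markers summed to 2346 to 2382 CPM in PBS, 1488 to 1508 CPM at LPS 15 min, and 2111 to 2159 CPM at LPS 30 min. At LPS 15 min 3 of these 4 were called lower with either scaling. Platelet markers summed to 23.2 to 25.2 CPM in PBS and 12.3 to 13.7 CPM at LPS 15 min, and lymphocyte markers to 6.45 to 7.39 and 2.38 to 3.76 CPM. The part of these cells was not tested.

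RefSeq promoter windows (GRCm38.p6, 250 bases before and 50 after a gene's start) were given for 8 of the 9 genes, in 10 windows, and Cxcl16 had none in the table. The NF-κB consensus motif was searched on both strands. It was found in 8.46% of all 32851 windows and in the windows of 2 members, Ccrl2 and Ackr2. The 250 bases before the start of these 2 genes are shown with the matches in capitals, next to those of Cxcl12, the member with the largest fall, which held no match.
Ccrl2, chr9:111057519-111057768, minus strand: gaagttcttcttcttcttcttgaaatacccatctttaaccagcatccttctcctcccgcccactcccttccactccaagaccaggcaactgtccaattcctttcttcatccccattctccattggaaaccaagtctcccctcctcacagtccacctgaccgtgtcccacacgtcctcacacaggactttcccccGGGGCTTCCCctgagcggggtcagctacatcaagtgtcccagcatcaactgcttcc
Ackr2, chr9:121898105-121898354, plus strand: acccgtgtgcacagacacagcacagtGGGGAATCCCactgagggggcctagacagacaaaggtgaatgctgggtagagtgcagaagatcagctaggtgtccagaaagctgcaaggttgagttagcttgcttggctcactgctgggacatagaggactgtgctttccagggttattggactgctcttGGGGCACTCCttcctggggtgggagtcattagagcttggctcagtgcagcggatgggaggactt
Cxcl12, chr6:117168285-117168534, plus strand: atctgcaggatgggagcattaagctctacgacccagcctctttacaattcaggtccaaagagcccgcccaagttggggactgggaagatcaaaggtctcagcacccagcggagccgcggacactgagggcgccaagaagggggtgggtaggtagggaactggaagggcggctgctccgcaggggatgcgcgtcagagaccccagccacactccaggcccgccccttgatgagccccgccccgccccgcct
In Ccrl2 the match began 56 bases before the start, in 1 of its 3 windows. In Ackr2 the matches began 224 and 64 bases before the start. The degenerate motif was met on both strands by the Ccrl2 match and the farther Ackr2 match, and on the gene's strand by the nearer Ackr2 match. The letters TGANTCA, searched for AP-1, were in 7.81% of all windows, and 2 copies of GAAA with 2 bases between them, searched for interferon-regulated factors, in 3.44%, and 0 of the 10 member windows held either. The window of Ackr1 lay within the annotated span of its neighbor Cadm3 and held none of the 3 motifs. A match describes letters in a window only.

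Ackr1 (Ensembl ENSMUSG00000037872, chr1:173331886-173333750, minus strand) was the only member called at all 3 times. The controls held 10.1, 9.62, and 9.20 CPM, and the libraries made 15 min after LPS 19.2, 19.3, and 20.7 CPM. At LPS 30 min the libraries held 151, 148, and 150 CPM, and at LPS 4 h 1581, 1546, and 1578 CPM. Each group lay above the one before it without overlap. Against PBS, edgeR gave an increase of 2.04-fold after 15 min (log2 fold change 1.03 ± 0.048 SE, adjusted p = 4.06e-08). The increase was 15.5-fold after 30 min (3.95 ± 0.038, adjusted p = 6.33e-27) and 163-fold after 4 h (7.34 ± 0.037, adjusted p = 5.60e-33). With scaling by library size alone the log2 fold change after 4 h was 6.64 and stayed called. The rise between LPS 15 min and LPS 30 min was 7.57-fold (adjusted p = 2.08e-24), and that between LPS 30 min and LPS 4 h 10.5-fold (adjusted p = 1.64e-28). Ranked by mean TPM among the 54119 genes, it moved from place 7355 in the controls to 4499, 508, and then 58 at the last time.

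Ackr1 was the 1 member of 9 called against PBS at LPS 15 min, where 4.18% of all tested genes were called (3.31% higher and 0.872% lower). It was again the 1 member called at LPS 30 min, where 4.58% were called (3.78% higher and 0.799% lower). The PBS count of the gene was 241 to 285 per library and its count at LPS 4 h 20503 to 23220. Its main transcript Ackr1-201, which codes for 334 residues, made nearly all of its TPM in PBS and 92.6% ± 0.60 at LPS 4 h (SD, n = 3). Ackr1-202, with 174 codons, held the remaining 1.98% ± 2.83 in PBS and 7.37% ± 0.60 at LPS 4 h. The 5′ part of Ackr1 lies in a region also annotated to Cadm3 on the same strand. Cadm3, a cell adhesion gene, was at 29.1 CPM in PBS and 44.9 CPM at LPS 15 min (log2 fold change 0.62, adjusted p = 0.964), above the Ackr1 level at both, and at 26.1 and 34.2 CPM at the later times, below it. How reads of the shared stretch were divided was not tested.

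Markers of cells known to carry Ackr1 moved too. The 3 erythrocyte markers reported (Hba-a1, Hbb-bs, Alas2) summed to 1480.5 to 1596 CPM in the control libraries. After LPS the sums were 2268 to 2339 CPM (15 min), 2854 to 2975 CPM (30 min), and 4442 to 4649 CPM (4 h), when 3 of 3 were called higher. The mean sum was 1528 CPM in PBS and 4533 CPM at LPS 4 h, while Ackr1 rose 163-fold. The 4 markers of venous endothelium summed to 1933 to 2012 CPM in PBS and 7724 to 7731 CPM at LPS 4 h, but they split. Vcam1, an adhesion molecule that inflammation is known to induce, rose from 334 to 6788 CPM (means of 3), whereas Slc38a5 fell from 143 to 19.6 CPM and Vwf from 1397 to 857 CPM, and Nr2f2 was at 97.2 and 64.2 CPM and was not called (1 higher and 3 lower with scaling by library size). The part of red cells or of venous vessels in the Ackr1 result was not tested.

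**Figure D1:**
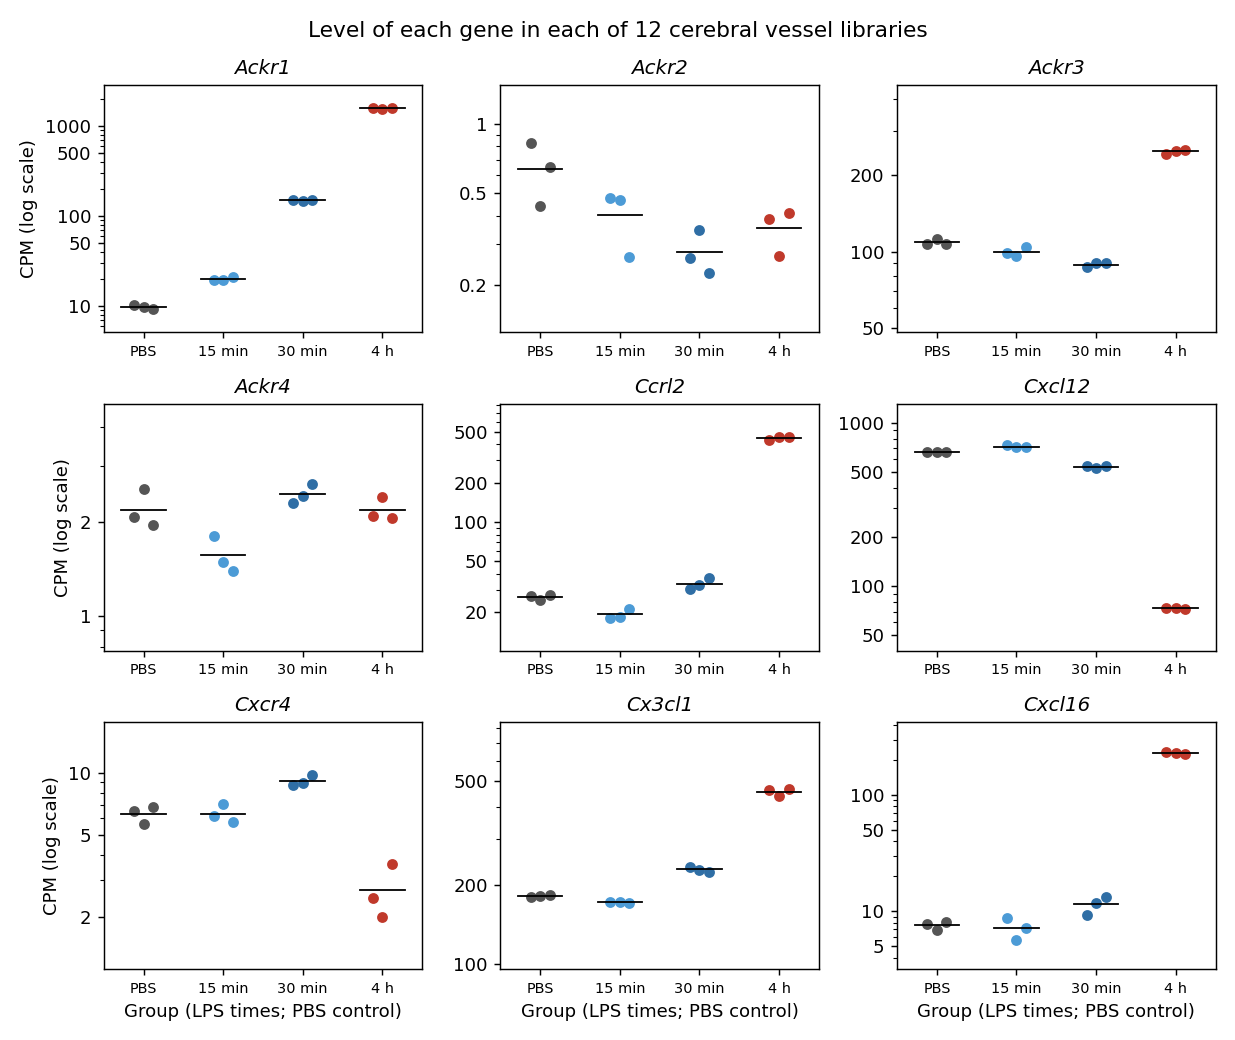
Each panel plots the CPM of 1 gene on a log axis for the 3 libraries of each group (points) with the group mean (line). Ackr1 climbs from 9.64 CPM in PBS to 1568 CPM at LPS 4 h, Cxcl12 falls from 663 to 73.3 CPM, and the points of Ackr2 and Ackr4 spread over their group means.

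Ackr3 (ENSMUSG00000044337, chr1:90203980-90216751, plus strand), which takes up Cxcl12 and adrenomedullin, was at 108, 112, and 108 CPM in PBS. It was at 98.5, 96.6, and 105 CPM at LPS 15 min and at 87.0, 90.1, and 90.1 CPM at LPS 30 min. At LPS 4 h the libraries held 244, 250, and 252 CPM. The early groups lay slightly below PBS without overlap and the last group above every other. Neither early difference passed the threshold (log2 fold change -0.13 ± 0.034 and -0.29 ± 0.035, adjusted p = 1 for both). At LPS 4 h Ackr3 was 2.28-fold higher than in PBS (1.19 ± 0.034, adjusted p = 1.49e-14) and 2.79-fold higher than at LPS 30 min (adjusted p = 1.36e-17). With scaling by library size alone, the difference from PBS at LPS 4 h was 0.48 on the log2 scale and was not called (adjusted p = 1), while that from LPS 30 min was 0.94 and was called. The transcript Ackr3-201, which holds the full reading frame of 362 codons, made 93.0% ± 2.8 of the gene's TPM in PBS and 94.8% ± 1.3 at LPS 4 h (SD, n = 3).

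Ackr2 and Ackr4 were the least abundant members. Ackr2 (ENSMUSG00000044534, chr9:121898355-121911074, plus strand), which scavenges inflammatory CC chemokines, had 13 to 22 counts per library in the controls and 4 to 6 at LPS 4 h, with 7 to 14 and 5 to 8 at the times between. Its level was 0.82, 0.44, and 0.65 CPM in PBS and 0.39, 0.27, and 0.41 CPM at LPS 4 h, which did not overlap. The difference at LPS 4 h was -0.84 ± 0.53 on the log2 scale and was not called (adjusted p = 0.412), whereas it was -1.53 and called with scaling by library size alone (adjusted p = 0.0343). Ackr4 (ENSMUSG00000079355, chr9:104084157-104126933, minus strand), the receptor for Ccl19, Ccl21, and Ccl25, had 27 to 75 counts per library. It was at 2.06, 2.53, and 1.95 CPM in PBS and 2.08, 2.40, and 2.05 CPM at LPS 4 h, which overlapped (log2 fold change -0.0031 ± 0.23). Ackr4 shares its position with Acad11 on the opposite strand, which was not called at LPS 4 h (log2 fold change -0.55), and without strand information reads of the overlap cannot be told apart. The transcript shares of Ackr2 and Ackr4 went from 0% to 100% between libraries of 1 group at these counts and are not described further.

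Ccrl2 (ENSMUSG00000043953, chr9:111054486-111057519, minus strand) was at 27.05, 24.97, and 27.22 CPM in PBS and 18.2, 18.5, and 21.4 CPM at LPS 15 min. It was at 30.3, 32.4, and 36.7 CPM at LPS 30 min and at 435, 453, and 458 CPM at LPS 4 h. The groups followed a dip and then a rise, none overlapping another. The increase over PBS at LPS 4 h was 17.0-fold (4.09 ± 0.055, adjusted p = 6.28e-25, and 3.39 with scaling by library size, also called), and neither early difference from PBS was called (-0.44 ± 0.068 and 0.33 ± 0.064). Between LPS 15 min and LPS 30 min Ccrl2 was called 1.71-fold higher (0.77 ± 0.067, adjusted p = 0.0292). That call was lost without LPS 15 min replicate 1 (adjusted p = 0.190), without LPS 15 min replicate 2 (adjusted p = 0.127), and without LPS 30 min replicate 3 (adjusted p = 0.264), and with DESeq2 (adjusted p = 0.0722). It was also lost with scaling by library size, the length offset, the 2 groups alone, and both limma settings (adjusted p from 0.0574 to 1), and with an added log2 limit of 1.5. The rise from LPS 30 min to LPS 4 h, 13.6-fold, was called under every setting tried, the libraries left out in turn included.

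The shares of the Ccrl2 transcripts differed between PBS and LPS 4 h. Of the gene's TPM, Ccrl2-203, which codes for 360 residues, made 50.0%, 51.6%, and 41.9% in the controls and 73.9%, 76.8%, and 74.8% at LPS 4 h, without overlap. Ccrl2-201, with the same number of codons, went from 23.5% ± 1.5 to 7.57% ± 0.35, and the short Ccrl2-202 from 28.6% ± 4.4 to 17.3% ± 1.9 (SD, n = 3). By fragments, which are not divided by length, Ccrl2-203 went from 55.8% to 84.7%, Ccrl2-201 from 37.7% to 11.7%, and Ccrl2-202 from 6.49% to 3.66%. All 3 transcripts were higher in TPM at LPS 4 h, Ccrl2-201 at 19.6 against 6.98 and Ccrl2-203 at 194 against 14.2. With 3 libraries against 3 an exact permutation test cannot give a two-sided p below 0.1, and transcript shares are given here as a description. Salmon divides reads of shared exons between transcripts by a model.

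Cxcl12 (ENSMUSG00000061353, chr6:117168535-117181367, plus strand), the chemokine that holds Cxcr4-bearing cells in place, was the most abundant member in PBS by TPM. Its level was 664, 665, and 661 CPM in PBS and 729, 710, and 710 CPM at LPS 15 min. It was 541, 531, and 543 CPM at LPS 30 min and 73.5, 74.0, and 72.5 CPM at LPS 4 h. The 4 groups did not overlap. At LPS 4 h the gene was 9.05-fold lower than in PBS (log2 fold change -3.18 ± 0.026, adjusted p = 1.54e-28, and -3.88 with scaling by library size, also called) and 7.34-fold lower than at LPS 30 min (adjusted p = 2.59e-27). The early differences, 0.11 ± 0.022 and -0.30 ± 0.022, did not exceed the 1.5-fold limit (adjusted p = 1 for both). In RNA from whole vessels, fewer cells of a type and less RNA per cell cannot be told apart.

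Markers of arterial endothelium, where Cxcl12 is known to be abundant, moved in the same direction, and so did part of the other endothelial markers. Of the 7 endothelial markers 4 were called lower at LPS 4 h (Tek from 516 to 86.4 CPM, Cldn5 from 2362 to 475 CPM, Kdr, and Pecam1) and 2 higher. Of the 4 venous markers 2 were called lower and 1 higher. The 5 arterial markers (Bmx, Efnb2, Gja5, Sema3g, Gkn3) summed to 869 to 918 CPM in PBS and 274 to 284 CPM at LPS 4 h, and 5 of 5 were called lower. The 5 fibroblast markers summed to 434 to 458 CPM and 299 to 311 CPM, with 2 of 5 called lower (Col1a1, Col1a2), and the 5 pericyte markers to 3476 to 3549 CPM and 3261 to 3375 CPM, with 0 of 5 called. With scaling by library size the markers called lower were 5 of 5 arterial, 4 of 5 fibroblast, and 5 of 5 pericyte. At LPS 15 min and LPS 30 min 0 of 5 arterial markers were called. The mean arterial sum was 892 CPM in PBS and 281 CPM at LPS 4 h, while Cxcl12 fell 9.05-fold. The part of these cells in the Cxcl12 result was not tested.

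The transcripts of Cxcl12 were lowered unequally. Cxcl12-202 has 3 exons and 89 codons, Cxcl12-203 4 exons and 93 codons, and Cxcl12-201 4 exons and 119 codons, the lengths of the alpha, beta, and gamma forms of the chemokine, of which gamma carries a long basic tail that binds heparan sulfate. Cxcl12-202 made 18.9%, 20.0%, and 19.5% of the gene's TPM in PBS and 45.8%, 49.0%, and 49.4% at LPS 4 h. Cxcl12-203 went from 47.6%, 46.9%, and 48.3% to 32.7%, 26.9%, and 33.9%, and Cxcl12-201 from 29.9% ± 0.79 to 18.6% ± 4.2 (SD, n = 3). The PBS and LPS 4 h values of each of these transcripts did not overlap. All 3 were lower in TPM at LPS 4 h, Cxcl12-202 at 10.6 against 59.3, Cxcl12-203 at 6.89 against 145, and Cxcl12-201 at 4.09 against 91.2. The ratio of Cxcl12-202 to Cxcl12-203, which no scaling of libraries can move, was 0.409 ± 0.015 in the controls, 0.331 ± 0.0071 and 0.435 ± 0.018 at the early times, and 1.56 ± 0.23 at LPS 4 h. By TPM, the order of these 2 transcripts was turned at LPS 4 h in 3 of 3 libraries. By fragments, which are not divided by length, Cxcl12-202 made 28.7% and Cxcl12-203 32.6% of the gene at LPS 4 h, against 9.51% and 40.4% in PBS.

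**Figure D2:**
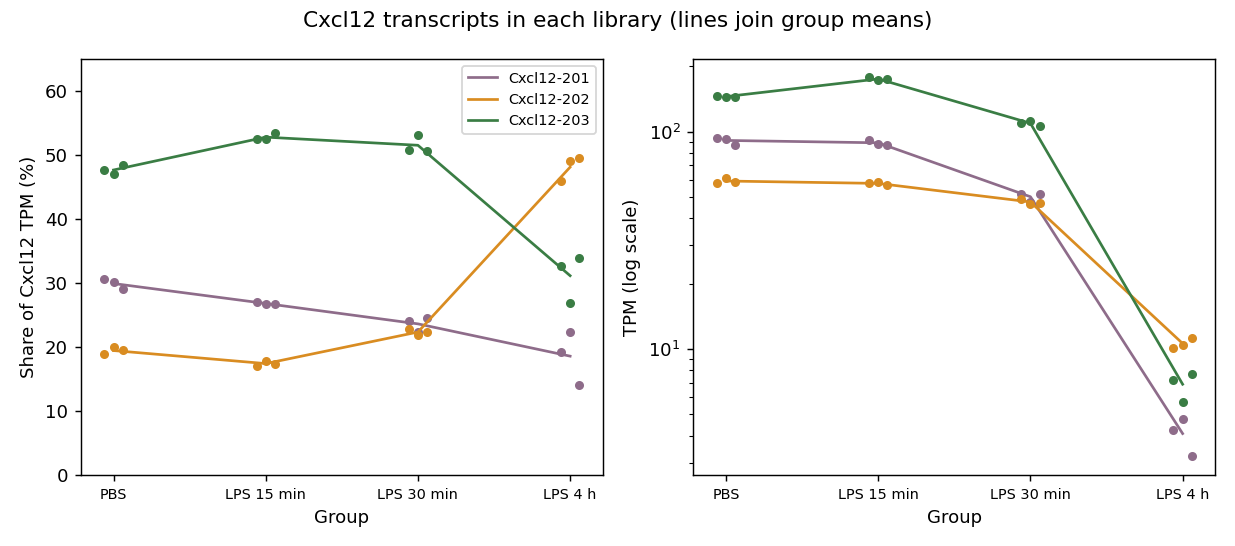
The left panel plots the share of each of 3 Cxcl12 transcripts in the gene's TPM (%) and the right panel their TPM on a log axis, by group, with points for libraries and lines joining group means. Cxcl12-202 passes Cxcl12-203 in share at LPS 4 h, 48.1% against 31.1%, while all 3 transcripts have their lowest TPM at LPS 4 h.

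Cxcr4 (ENSMUSG00000045382, chr1:128588199-128592293, minus strand), the signaling receptor of Cxcl12, was at 6.52, 5.63, and 6.79 CPM in PBS and 6.14, 7.05, and 5.74 CPM at LPS 15 min. It was at 8.71, 8.95, and 9.74 CPM at LPS 30 min and at 2.47, 2.00, and 3.62 CPM at LPS 4 h. The LPS 30 min libraries lay above all others and the LPS 4 h libraries below. The difference at LPS 30 min was 0.53 ± 0.15 on the log2 scale and was not called (adjusted p = 1). At LPS 4 h Cxcr4 was 2.34-fold lower than in PBS (-1.22 ± 0.18, adjusted p = 8.55e-04) and 3.38-fold lower than at LPS 30 min (-1.76 ± 0.18, adjusted p = 8.69e-07). The call against PBS rested on 30 to 53 counts per library at LPS 4 h and 167 to 178 in PBS. It was kept without each of the 6 libraries in turn, with adjusted p from 5.89e-05 to 0.0128. The shorter transcript Cxcr4-202 made 2.05% ± 1.79 of the gene's TPM in PBS and 14.7% ± 4.0 at LPS 30 min, and was listed at 0 at LPS 4 h (SD, n = 3). By fragments its share was 0.855% in PBS, where no library held more than 2.43 of them, and 6.62% at LPS 30 min. With 30 to 53 counts for the gene at LPS 4 h, the 0 is not read as a loss.

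Leukocytes are known carriers of Cxcr4, and their marker lists went in different directions at LPS 4 h. The 5 lymphocyte markers summed to 6.45 to 7.39 CPM in PBS and 2.73 to 3.70 CPM, and the 5 microglia markers to 135 to 137 CPM and 89.7 to 95.4 CPM, with 2 markers called lower in each list. The 6 neutrophil markers (S100a8, S100a9, Retnlg, Ngp, Camp, Cxcr2) summed to 4.38 to 5.04 CPM in PBS and 196 to 200.1 CPM at LPS 4 h, with 6 of 6 called higher, and the 4 monocyte markers to 38.7 to 47.9 CPM and 135 to 139 CPM, with 3 of 4 called higher. Scaled by library size, 4 of the 4 lymphocyte markers tested and 5 of 5 microglia markers were called lower, and 6 neutrophil and 2 monocyte markers higher. None of the markers in these lists was without a count over a whole group. The part of leukocytes in the Cxcr4 result was not tested.

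Cx3cl1 (ENSMUSG00000031778, chr8:94772009-94782427, plus strand), fractalkine, was at 180, 182, and 184 CPM in PBS and 173, 172, and 172 CPM at LPS 15 min. It was at 236, 230, and 225 CPM at LPS 30 min and at 463, 439, and 467 CPM at LPS 4 h. No group overlapped another. The gene was 2.51-fold higher than in PBS at LPS 4 h (1.33 ± 0.028, adjusted p = 5.27e-18), and the differences at LPS 15 min (-0.078 ± 0.028) and LPS 30 min (0.34 ± 0.028) were not called (adjusted p = 1 for both). With scaling by library size alone the difference at LPS 4 h was 0.62 and fell just outside the threshold (adjusted p = 0.0526), and the 1.98-fold rise from LPS 30 min to LPS 4 h became 0.45 on the log2 scale and was not called (adjusted p = 1). The transcript with the full reading frame of 395 codons, Cx3cl1-201, made 94.7% ± 2.0 of the TPM in PBS, 82.2% ± 1.1 at LPS 30 min, and 95.6% ± 0.33 at LPS 4 h, and the short Cx3cl1-206 made 9.90% ± 2.93 at LPS 30 min (SD, n = 3). By fragments, which are not divided by length, Cx3cl1-201 made 99.6%, 98.8%, and 99.7% in these groups. Cx3cl1-206 made 0.78% of fragments at LPS 30 min, so its TPM share rests on few fragments of a short transcript.

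Cxcl16 (ENSMUSG00000018920, chr11:70453983-70459984, minus strand) started low and rose late. Its level was 7.72, 6.95, and 8.17 CPM in PBS and 8.71, 5.69, and 7.13 CPM at LPS 15 min, which overlapped. It was 9.36, 11.8, and 13.4 CPM at LPS 30 min and 235, 228, and 226 CPM at LPS 4 h, both above PBS without overlap. The increase was 30.2-fold at LPS 4 h (4.92 ± 0.090, adjusted p = 2.45e-22, and 4.21 with scaling by library size, also called), and at LPS 30 min the difference was 0.60 ± 0.12 and not called (adjusted p = 1). From LPS 30 min to LPS 4 h the gene rose 19.9-fold (adjusted p = 2.61e-21). The coding transcript Cxcl16-201 made 40.0% ± 12.8 of the TPM in PBS and 61.8% ± 2.8 at LPS 4 h, and Cxcl16-202, annotated as a target of nonsense-mediated decay, 59.6% ± 13.4 and 34.0% ± 2.6 (SD, n = 3), with no overlap between the groups for either, although the PBS libraries differed widely among themselves at 206 to 214 counts for the gene. The start of Cxcl16 overlaps Zmynd15 on the opposite strand, which was at 2.17 CPM in PBS and 24.2 CPM at LPS 4 h (log2 fold change 3.48, adjusted p = 1.97e-14), and reads of the overlap cannot be told apart without strand. Beside Cxcl16 and Ccrl2 stand the neutrophil and monocyte markers given with Cxcr4. The 4 astrocyte markers summed to 624 to 640 CPM in PBS and 1261 to 1298 CPM at LPS 4 h, with 2 of 4 called higher (Gja1, 74.6 to 522 CPM, and Gfap, 179 to 281 CPM), 1 higher and 1 lower with scaling by library size, and Aldh1l1 at 25.1 and 25.2 CPM. The part of these cells was not tested.

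At LPS 4 h 7 of the 9 members were called against PBS, beside 32.8% of all tested genes. Of these, 5 were higher (Ackr1, Ackr3, Ccrl2, Cx3cl1, Cxcl16), beside 19% of all genes, and 2 were lower (Cxcl12, Cxcr4), beside 13.8%. The median log2 fold change of the 9 members was 1.19, and that of all tested genes -0.0098. With scaling by library size alone 3 were higher (Ackr1, Ccrl2, Cxcl16) and 3 lower (Ackr2, Cxcl12, Cxcr4). Beside them, 10462 of the 19150 tested genes were called with this scaling, 18.2% of these higher and the rest lower, so a lower call was common. At LPS 15 min the members' median was -0.078 and at LPS 30 min 0.33, with medians of all genes at -0.0021 and -0.010. Libraries that did not overlap those of PBS were seen for 6 members at LPS 15 min (beside 49.3% of all tested genes), for 8 after 30 min (beside 46.7%), and for 8 after 4 h (beside 70.9%), so that lack of overlap was common in these libraries.

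Between LPS 15 min and LPS 30 min 2 members were called, both higher (Ackr1, Ccrl2), beside 4.65% of all tested genes in either direction and 2.69% in this direction. Between LPS 30 min and LPS 4 h 7 were called, beside 28.6% of all tested genes, 5 higher (beside 16.9%) and 2 lower (beside 11.8%), and they were those called against PBS at LPS 4 h. Without overlap were 8 members in the first of these steps, beside 47.6% of all tested genes, and 7 in the second, beside 67.5%. Ackr2 and Ackr4 were called in 0 of the 5 comparisons.

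**Figure D3:**
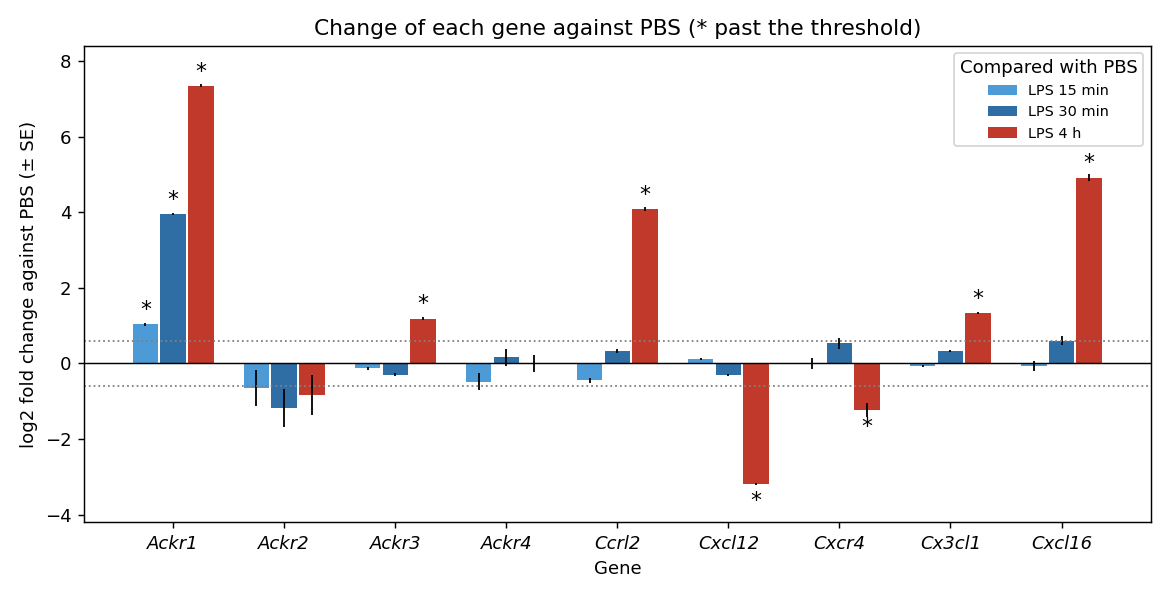
Bars give the log2 fold change of each gene at each LPS time against PBS with its SE (3 libraries per group), asterisks mark changes past the threshold, and dotted lines mark 1.5-fold. Ackr1 alone is marked at all 3 times, and 7 genes are marked at LPS 4 h, 5 above 0 and 2 below.

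Per length of transcript, the order of the members changed over time. In PBS the mean TPM was highest for Cxcl12 (305 ± 3.7), followed by Cx3cl1 (95.0 ± 2.0), Ackr3 (63.8 ± 3.8), Ccrl2 (29.7 ± 2.4), Ackr1 (16.6 ± 0.82), Cxcl16 (7.48 ± 0.37), Cxcr4 (6.34 ± 0.64), Ackr4 (1.69 ± 0.40), and Ackr2 (0.702 ± 0.60; SD, n = 3). No neighbors in this order overlapped in their libraries, but Ackr4 (from 1.40 TPM) and Ackr2 (up to 1.39 TPM) nearly met. The highest Ackr2 value, in PBS replicate 3, held 1.04 TPM from 1.42 estimated fragments of the short Ackr2-203, so the Ackr2 mean is not firm. At LPS 15 min Ackr1, at 34.0 ± 1.4 TPM, stood above Ccrl2, at 21.7 ± 4.1 TPM, and Cxcr4 and Cxcl16 overlapped. At LPS 30 min Cxcl12 (212 ± 2.3 TPM) and Ackr1 (211 ± 3.0 TPM) overlapped at the top. At LPS 4 h Ackr1 was first with 1448 ± 27 TPM, then Ccrl2 with 259 ± 4.9, Cx3cl1 with 125 ± 4.7, Cxcl16 with 99.4 ± 1.4, Ackr3 with 75.5 ± 0.68, and Cxcl12 with 22.1 ± 0.69 TPM, and Cxcr4 (1.42 ± 0.44) and Ackr4 (1.06 ± 0.23) overlapped. TPM sums to the same total in each library, so a change in TPM over time also moves with the rest of the RNA.

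**Figure D4:**
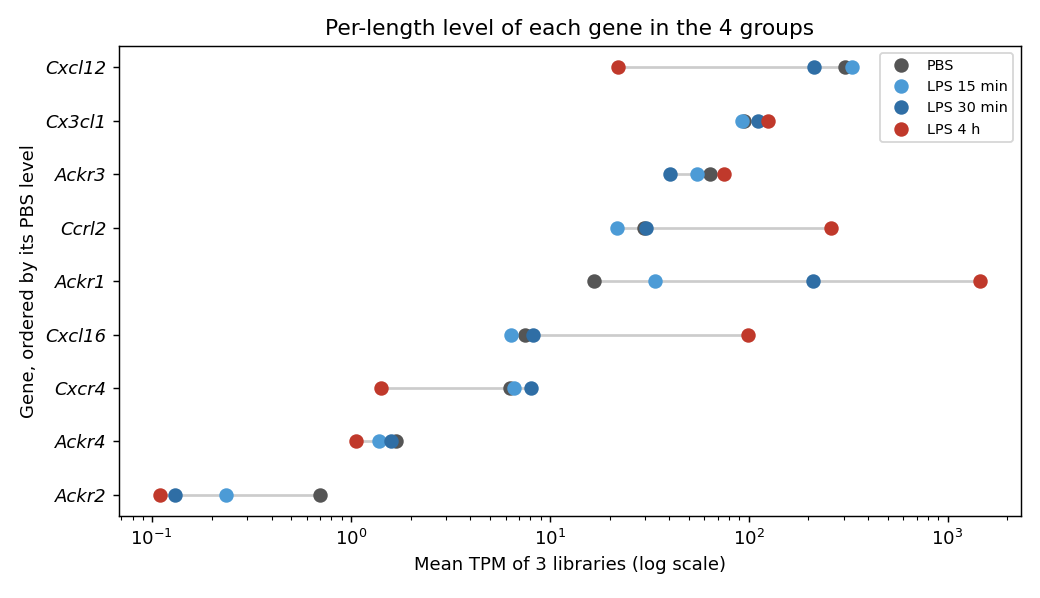
Points give the mean TPM of 3 libraries on a log axis for each gene (rows, ordered by the PBS level) and group (colors), with a grey line from the lowest to the highest group. Cxcl12 is highest in PBS at 305 TPM and Ackr1 at LPS 4 h at 1448 TPM.

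The inflammatory chemokines that Ackr1 or Ackr2 bind rose with time. Of 11 measured and tested, 4 were called higher at LPS 15 min (Cxcl1, Cxcl2, Ccl2, Ccl11), 7 at LPS 30 min (these and Ccl3, Ccl4, Ccl7), and 11 at LPS 4 h (adding Ccl5, Ccl17, Ccl22, Cxcl5), with 0 lower, and the counts were equal with scaling by library size. Over all tested genes 3.31%, 3.78%, and 19% were called higher at these times. Cxcl1, a neutrophil attractant, went from 1.43 CPM in PBS (mean of 3) to 88.0, 1122, and 3482 CPM, and Cxcl2 from 0.214 to 11.9, 205, and 1365 CPM. Ccl2, a monocyte attractant, went from 0.491 CPM to 1.24, 13.7, and 689 CPM. Ccl5 was at 0.728, 0.602, and 0.641 CPM in PBS and at the early times and at 129 CPM at LPS 4 h. The list's median log2 fold change was 0.33, 2.57, and 7.84 at the 3 times, beside the medians of all genes given above. The ligands were low in PBS, where 10 of 11 stood below 1 CPM, so that their folds rest on few counts.

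Among ligands of Ackr3, Ackr4, and Ccrl2 other than Cxcl12, which was called lower at LPS 4 h, 5 of 6 were tested, and 0, 2, and 3 were called higher at the successive times (beside 3.31%, 3.78%, and 19% of all tested genes), with 0 lower. Cxcl11, an interferon-induced ligand of Ackr3 whose gene in C57BL6 mice is known not to give a working protein, was at 0.794 CPM in PBS and 271 CPM at LPS 4 h. Adm, adrenomedullin, was at 4.19 CPM in PBS, 8.80 CPM at LPS 30 min (log2 fold change 1.06, adjusted p = 0.0136), and 116 CPM at LPS 4 h. Ccl19, an Ackr4 ligand, rose from 22.7 to 100 CPM at LPS 4 h, while Ccl25 was at 6.78 and 7.13 CPM and was not called. Rarres2, which encodes chemerin, the ligand of Ccrl2, was called only at LPS 30 min, at 85.0 CPM against 50.1 CPM in PBS (0.76, adjusted p = 0.00234), and was at 54.7 CPM at LPS 4 h, where Ccrl2 was highest. The calls of Adm and Rarres2 at LPS 30 min were lost with scaling by library size. Ccl21a, which has near-identical copies in the genome, was too low to be tested.

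A list of 6 signaling receptors (Cx3cr1, Cxcr6, Cmklr1, Gpr1, Cxcr3, Calcrl) for the tethered chemokines and for chemerin, Cxcl11, and adrenomedullin had 5 tested, with 0 called higher at the 3 times and 0, 1, and 3 called lower (beside 0.872%, 0.799%, and 13.8% of all tested genes). It leaves out Cxcr4, described above, and the receptors of Ccl19 and Ccl25, of which Ccr7 was called higher at LPS 4 h, at 4.39 CPM against 0.728 CPM in PBS, and Ccr9 was at 3.08 and 2.94 CPM and was not called. Cx3cr1, the receptor of Cx3cl1 on microglia and monocytes, was at 12.3, 13.3, and 10.5 CPM in PBS, 7.90, 8.50, and 6.83 CPM at LPS 15 min, 5.29, 5.47, and 4.83 CPM at LPS 30 min, and 2.16, 2.13, and 1.84 CPM at LPS 4 h. Each group lay below the one before it, and the fall was called at LPS 30 min (-1.21 ± 0.13, adjusted p = 3.18e-04) and LPS 4 h (-2.55 ± 0.16, adjusted p = 5.34e-11). Cmklr1, a chemerin receptor, went from 26.2 to 9.99 CPM at LPS 4 h (-1.38 ± 0.13, adjusted p = 1.52e-06). Cxcr3, the signaling receptor of Cxcl11, had 62 counts over the PBS libraries and 0 over those at LPS 4 h, which was at least 10.7-fold lower against a floor of 3 counts over the group. Gpr1 (0.426 and 0.567 CPM in PBS and at LPS 4 h) and Calcrl (75.3 and 91.6 CPM), an adrenomedullin receptor, were not called, and Cxcr6, the receptor of Cxcl16, was too low to be tested, at 0.379 CPM in PBS. The receptors Gpr182 and Pitpnm3, proposed as further atypical receptors, were not called at any time, at 31.0 and 43.7 CPM in PBS and 39.4 and 30.7 CPM at LPS 4 h, although Pitpnm3 was called lower at LPS 4 h with scaling by library size.

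Of 6 proteases and regulators that act on tethered chemokines or on Cxcl12, 0 were called at LPS 15 min, 1 higher at LPS 30 min, and 3 higher and 2 lower at LPS 4 h, a split that became 1 and 2 with scaling by library size. At LPS 4 h 19% of all tested genes were called higher and 13.8% lower. The genes called higher at LPS 4 h were Adam17, a sheddase of Cx3cl1 (75.2 to 142 CPM), its partner Rhbdf2 (54.9 to 248.8 CPM), and its inhibitor Timp3 (1125 to 2592 CPM), of which Rhbdf2 kept its call with scaling by library size. Those called lower were Adam10, the sheddase that acts on both tethered chemokines in resting cells (181 to 106 CPM), and Dpp4, which trims Cxcl12 (13.5 to 5.82 CPM). These 5 were named after their values were seen.

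For each member called against PBS, the genes most like it were found by Pearson's r of log2(CPM + 1) over the 12 libraries, among 16305 genes with a mean of at least 1 CPM. The points fall into 4 groups and share libraries, so that high values are frequent and r is a description. Closest to Ackr1 were Lcn2 (r = 0.999), an acute phase protein, Cebpb (0.998), and Ier5 (0.997). Closest to Ccrl2 were Atp1b3, Steap4, and Apod (0.999 to 0.998), and to Cxcl16 Dnajb6, Stat3, and Esam (0.998 to 0.997). For Ackr3 they were Adgrf5, Uba7, and Ankrd28 (0.998 to 0.997), and for Cx3cl1 Relb, Rhoc, and Marcksl1 (0.999). Closest to Cxcl12 were Itm2a, Clstn1, and Slc36a1 (r = 1.000 to 0.999), and to Cxcr4 Tead2, Mid2, and Mapk4 (0.977 to 0.975).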

How the data were processed

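RNA of isolated cerebral vessels was made into SMART-Seq v4 and Nextera XT libraries, a protocol that does not keep strand, and sequenced as paired ends. The authors quantified transcripts with Salmon 1.2.1 against GRCm38.p6, and the deposited files give estimated counts (fragments, not normalized) and TPM (scaled for effective length and to a constant sum). The deposited gene table holds a normalized signal, counts divided by the authors with DESeq2 size factors and transcript length factors, and was used in an alternative alone. Columns of the gene table were matched to samples by the sequencing number in each sample's file name. All per-sample columns were used.

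Estimated counts were summed to genes by GENCODE M21 identifiers (1096 of 140948 transcripts, with 0.482% to 0.850% of fragments, did not match) and rounded. Genes passing filterByExpr (minimum count 10, total 15, share 0.7) entered a test by edgeR 4.0.16 (R 4.3.3) with TMM factors, 1 quasi-likelihood fit of 12 libraries, and glmTreat against log2(1.5), with Benjamini-Hochberg adjustment over 19150 genes. The mean TMM factor fell from 1.17 (PBS) and 1.15 (LPS 15 min) to 1.04 (LPS 30 min) and 0.717 (LPS 4 h). The SE is the log2 fold change over the root of the quasi-likelihood F and can understate the error of large changes from few counts. Depth was 18.3 to 25.9 M fragments. Replicates are separate pools of mice by the labels, and p-values measure the spread between pools of the same group. That spread was small, with a common coefficient of variation in edgeR of 0.052. A difference in how whole groups were prepared would not enter it, and cannot be told apart from LPS here. The test was tried on simulated data.

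Alternatives were DESeq2 1.42.0 with the same limit, RLE size factors, library size alone, no filter, no fold limit, a further limit of 1.5 on log2, transcript length offsets, the 2 groups alone, the replicate number as a block, limma 3.58.1 on log2 of the gene table with 1 or 10 added, and each library left out. The members, lists, and tests were chosen with earlier results of these data known. The rule names all members, the genes of the first 4 lists of ligands and receptors and of other lists those called at all 3 times, the 3 genes most like each called member, and transcripts with at least 5% of a member's TPM, those of Ackr2 and Ackr4 excepted. Some cell type markers and other list genes are named outside this rule, and are not to be read as a selection made in advance. From the erythrocyte list, 1 marker is not reported here. Promoter windows are from RefSeq. Python 3.11.15, numpy 2.4.6, and pandas 2.3.3 served for the tables, matplotlib 3.10.9 for the plots.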

Additional observations from a re-analysis of the deposited data

Results flagged for a closer look

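Successive LPS times share PBS as their control, so that the difference between their effects is the direct comparison of the groups (edgeR, log2 fold change with its adjusted p given above). It passed the threshold for 9 pairs of a member and a step. From LPS 15 min to LPS 30 min these were Ackr1 (2.92) and Ccrl2 (0.77), the latter a call that 3 single libraries and several settings removed. From LPS 30 min to LPS 4 h they were Ackr1 (3.39), Ccrl2 (3.76), Cxcl16 (4.32), Ackr3 (1.48), and Cx3cl1 (0.99), which were higher, and Cxcl12 (-2.88) and Cxcr4 (-1.76), which were lower. No group has 4 libraries, so single libraries were not tested as outliers.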

How the results depend on the processing

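The number of members called against PBS (1, 1, and 7) was 5 and 7 without the fold limit at LPS 15 min and LPS 30 min, and 0 at LPS 15 min and 4 at LPS 4 h with the added log2 limit of 1.5. The shares of all tested genes called under these 2 settings are not given here. Member counts under them therefore cannot be read as particular to the members. With each library left out it stayed from 1 to 1 at LPS 15 min, from 1 to 1 at LPS 30 min, and from 7 to 7 at LPS 4 h, as did the 7 called between LPS 30 min and LPS 4 h. The 2 members called between LPS 15 min and LPS 30 min were 1 with DESeq2, library size alone, the added limit, the length offset, the 2 groups alone, and limma with 1 or 10 added, 8 without the fold limit, and 1 to 2 with a library left out. The replicate number gave no pairing: of 18 correlations of same-numbered deviations, from -0.096 to 0.053, 0 exceeded 0.1. With it as a replicate block the counts of calls were equal (1, 1, 7, 2, and 7). Values near 0 that were not called changed sign: Cxcr4 at LPS 15 min was 0.063 with the length offset, 0.0031 with the replicate block, and 0.046 and 0.043 in limma with 1 and 10 added, and from -0.086 to 0.062 with a library left out. Ackr4 at LPS 4 h was 0.00093 with DESeq2, 0.0012 with RLE, 0.19 with the length offset, 0.19 and 0.16 in limma, and from -0.082 to 0.12 with a library left out. Ackr2 between LPS 30 min and LPS 4 h was -0.18 with library size, and Cxcl16 at LPS 15 min ranged from -0.23 to 0.069 with a library left out. By fragments in place of TPM, the share of Cxcl12-202 rose by 19.2 percentage points at LPS 4 h, not 28.6, and that of Cxcl12-203 fell by 7.76, not 16.5. With a library left out the differences were 27.9 to 29.7 for Cxcl12-202, -17.9 to -14.3 for Cxcl12-203, -13.2 to -9.07 for Cxcl12-201, 24.3 to 29.2 for Ccrl2-203, 15.7 to 28.4 for Cxcl16-201, and -32.5 to -19.1 for Cxcl16-202. The causes of these shifts were not tested. Ackr2 had 4 to 22 counts per library, the fewest of the members.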

Other observations

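Conventional chemokine receptors of leukocytes moved in both directions. Of 17, 11 were tested, with 0 higher and 2 lower at LPS 15 min, 0 higher and 2 lower at LPS 30 min, and 4 higher and 3 lower at LPS 4 h (3 and 3 with scaling by library size). Over all tested genes 0.872% and 0.799% were called lower at the early times, and 19% higher and 13.8% lower at LPS 4 h. Ccr7, a receptor of Ccl19 on lymphocytes and dendritic cells, was called at all 3 times, lower at LPS 15 min and LPS 30 min and higher at LPS 4 h. It was at 0.728 CPM in PBS (mean of 3), 0.146 CPM at LPS 15 min, 0.160 CPM at LPS 30 min, and 4.39 CPM at LPS 4 h. Summed over the 3 libraries these were 61, 12, 11, and 189 counts, so the early calls rest on few counts. Neutrophil marker sums were 4.38 to 5.04 CPM in PBS and 196 to 200.1 CPM at LPS 4 h, and their part was not tested. Cxcr2 belongs to both lists.

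Of 6 arrestins and receptor kinases, which turn off or internalize chemokine receptors, 1 was called higher at LPS 15 min, 0 at LPS 30 min, and 1 higher at LPS 4 h (beside 3.31%, 3.78%, and 19% of all tested genes), with 0 lower. With scaling by library size 0 were higher and 4 lower at LPS 4 h, so that no direction can be given for this list.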
